A study of Mus musculus with 6 samples.

Results

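Retinoic acid, the active form of vitamin A, is made and broken down within the seminiferous tubule and is needed for spermatogonia to differentiate and for germ cells to enter meiosis. Retinol enters cells through receptors such as STRA6, is stored as esters by LRAT, and is turned into retinoic acid in 2 oxidations, first to retinal by retinol dehydrogenases such as RDH10 and then to the acid by the aldehyde dehydrogenases of the ALDH1A group. Enzymes of the CYP26 group break retinoic acid down, and nuclear receptors such as RARA carry its signal to genes. The 9 genes described here are Aldh1a1, Aldh1a2, Aldh1a3, Rdh10, Cyp26a1, Cyp26b1, Stra6, Lrat and Rara, out of 19751 genes named on the array. They were chosen by name, with earlier results of these data known. The 10 probes whose accession maps to one of them were used: 2 for Rara and 1 for each other gene.

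Whole testes of 10-week-old male C57BL/6J mice were compared, 3 with a TAp73 KO and 3 TAp73 WT, with 1 mouse and 1 single-colour Agilent array per sample. TAp73 names those products of Trp73, a gene of the p53 family, that keep the transactivation domain. The labels give the genotype without the deleted part of the gene or a Cre driver. In whole testis, fewer cells of a type and less RNA per cell cannot be told apart.

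On each array 74.9% to 84.7% of spots were well above background. KO replicate 1 stood apart from the other arrays, at -66.2 on the first principal component against -4.91 to -3.92 for the other KO arrays and 21.7 to 30.8 for the WT arrays. The targeted gene was low where the scanner files are labelled KO. Trp73 probe A_52_P193555 read 0.333%, 0.116% and 0.118% of the array's 75th percentile signal in KO testes and 10.6%, 10.6% and 10.8% in WT testes (log2 difference -6.01, adjusted p = 0.00369, limma). Probe A_55_P1988133 gave -3.21 (adjusted p = 0.00213). Probe A_52_P410636 was well above background on all 3 KO arrays, at 9.64% ± 1.14 in KO and 19.1% ± 0.42 in WT testes (SD, n = 3 each; 1.99-fold lower, adjusted p = 0.0104 in limma), so Trp73 signal remained by that probe. With the replicate number as a block the adjusted p-values were 0.0686, 0.0369 and 0.0927 in this order, with the same differences. The call of A_52_P193555 was also lost in limma within slide 1 (-5.77, adjusted p = 0.183) and under normexp (-1.88, adjusted p = 0.537). So was that of A_55_P1988133, at -3.07 (adjusted p = 0.1095) and -0.90 (adjusted p = 0.537). Probe A_52_P410636 was called in 13 of 19 alternative settings. Normexp is a background correction that fits a model of signal plus noise to background-subtracted intensities, here with an offset of 50 units added. Slide 1 held KO replicates 1 and 2 with WT replicates 1 and 3, and slide 2 the remaining pair. The columns of the authors' value table carry the opposite genotype labels for the same arrays, with correlations of 0.968 to 0.994 between each scanner file and its matching column of the other genotype. Directions below follow the scanner files; under the value table's labels each would turn round. Testis markers were present: the 15 Sertoli cell, 8 Leydig cell and 7 elongating spermatid genes measured were well above background on all 6 arrays.

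Of the 2 breakdown enzymes, Cyp26a1 has a match to the response element of retinoic acid receptors in its promoter window and Cyp26b1 does not. RefSeq promoter windows, from 250 bases before to 50 bases after a transcription start on GRCm38.p6, were searched on both strands for the half-site bound by retinoic acid receptors, written as AGGTCA or AGTTCA or GGGTCA or GGTTCA. A direct repeat of the half-site with a spacer of 5 bases is the classical response element of these receptors. The windows of Cyp26a1 (chr19:37697558-37697857, plus strand) and its paralog Cyp26b1 (chr6:84593761-84594060, minus strand) are shown 5′ to 3′ on the gene's strand, with half-sites in capitals, because the 2 enzymes do the same reaction and differ in this element.
Cyp26a1: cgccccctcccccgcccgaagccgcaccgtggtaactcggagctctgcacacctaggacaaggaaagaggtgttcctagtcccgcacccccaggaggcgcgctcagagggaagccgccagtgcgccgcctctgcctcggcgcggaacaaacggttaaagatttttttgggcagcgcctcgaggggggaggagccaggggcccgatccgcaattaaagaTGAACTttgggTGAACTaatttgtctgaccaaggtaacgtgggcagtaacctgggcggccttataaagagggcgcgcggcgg
Cyp26b1: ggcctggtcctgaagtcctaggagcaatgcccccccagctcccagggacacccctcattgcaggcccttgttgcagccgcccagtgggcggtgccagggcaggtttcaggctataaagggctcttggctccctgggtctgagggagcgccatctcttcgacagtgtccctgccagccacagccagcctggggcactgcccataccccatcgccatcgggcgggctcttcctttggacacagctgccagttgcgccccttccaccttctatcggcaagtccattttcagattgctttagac
The Cyp26a1 window holds the repeat on the strand opposite to the gene, reading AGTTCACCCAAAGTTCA, between positions -32 and -16 from the start. This repeat was found in 0.097% of 32851 windows of all genes, and the repeat with a spacer of 2 bases in 0.268%. A single half-site is common, in 43.7% of windows. No half-site was found in the Cyp26b1 window. Of the 9 genes, 7 had 14 windows in the table, 5 of which held a half-site. Outside Cyp26a1 no member window held either repeat, and none of the 14 held the p53 family half-site, which was found in 8.36% of all windows. Such matches describe letters within these windows only.

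None of the 10 probes passed the test between KO and WT testes. Called probes, those with an adjusted p under 0.05 in limma over all 31801 tested probes, made up 2.88% of the array, so a count of 0 among 10 is near what that share gives. All 10 probes were well above background on all 6 arrays. The Aldh1a1 probe, saturated on 2 of 3 KO and all 3 WT arrays, stays in the counts and the median here, although its test could not show a rise. By unadjusted limma p-values under 0.05, 2 of them were lower in KO testes (Stra6 and Rdh10) and 1 was higher (Cyp26a1), against 10.9% (lower) and 12.3% (higher) of the tested probes. KO and WT arrays did not overlap for 4 of the 10 probes, near the 31.7% of tested probes: KO lay below WT for 3 (13.1% of tested probes) and above it for 1 (18.6%). The median difference over the 10 probes was -0.10 on the log2 scale, and it was 0.06 over all tested probes.

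**Figure D1:**
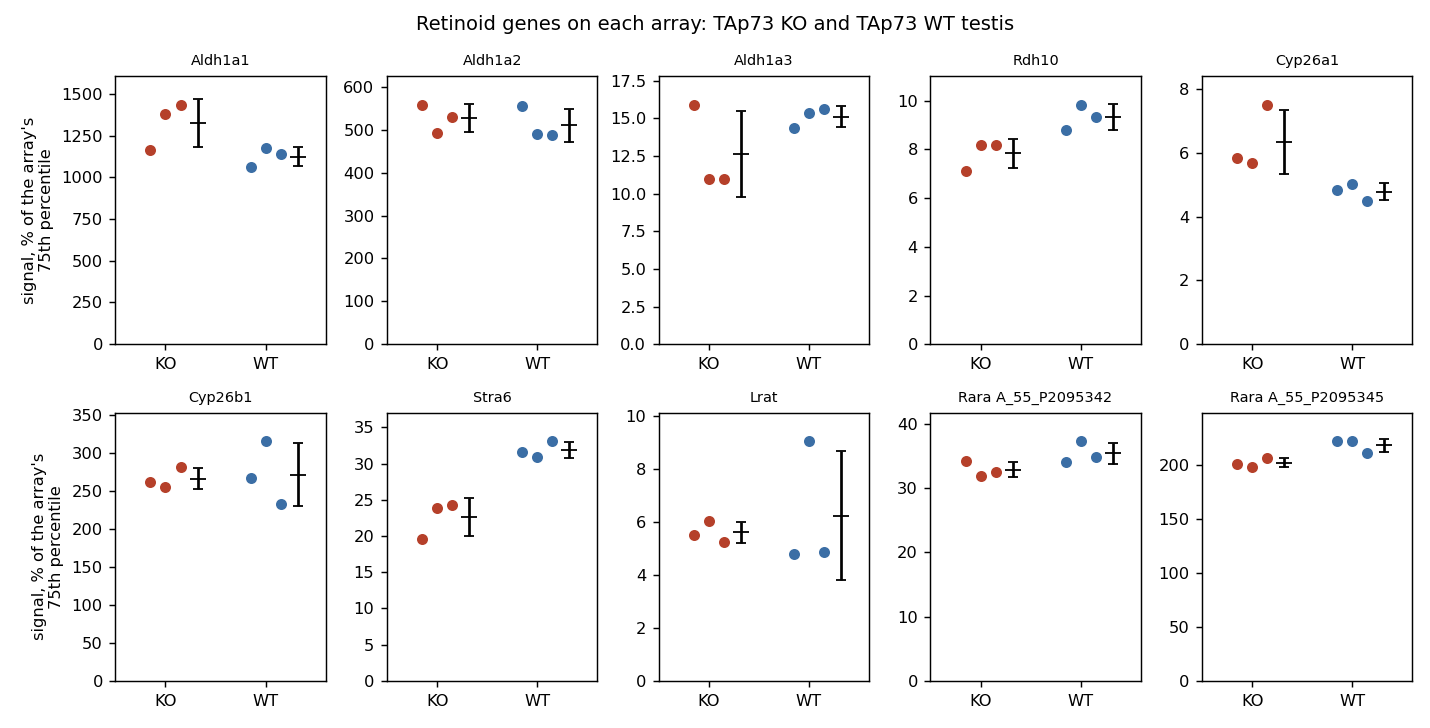
Signal of each probe of the 9 retinoid genes, as a percentage of the 75th percentile of signals on the same array (vertical axes, linear, from 0), on the 3 KO and 3 WT arrays. Points are arrays, and the bars beside them give the mean ± SD (n = 3). KO and WT points are separate for Stra6, Rdh10, Cyp26a1 and Rara probe A_55_P2095345, and overlap or interleave elsewhere; the Aldh1a1 spots were saturated on 5 of the 6 arrays.

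Uptake was the step with the smallest p-value among the 9 genes. Stra6, the membrane receptor that takes retinol from its carrier in blood, read 19.6%, 23.9% and 24.3% of the array's 75th percentile in KO testes and 31.6%, 30.9% and 33.1% in WT testes. All 3 KO arrays lay below all 3 WT arrays. The means were 22.6% ± 2.62 in KO and 31.9% ± 1.11 in WT testes (SD, n = 3 each), a log2 difference of -0.50 (SE 0.10, 95% interval -0.75 to -0.25). This missed the threshold, with an adjusted p of 0.0648 in limma. When the test was limited to the 29028 probes well above background on all 6 arrays, the adjusted p was 0.0477 in limma. This was the only call of Stra6 among 19 alternative settings. The adjusted p in limma was 0.122 with no filter, 0.123 with slide as a fixed block, 0.166 with the replicate block and 0.537 under normexp. With 1 array left out it was 0.0805 to 0.191. The difference was -0.58 within slide 1 (2 KO and 2 WT arrays) and -0.35 in the pair on slide 2, and it was -0.56 to -0.40 when 1 array was left out. Sertoli cells, the nurse cells of the tubule, handle much of the retinol in the testis. In the same arrays 4 of 15 Sertoli markers fell (Sox9, Gata1, Vim and Aard) and 0 were called higher, with a list median of -0.44. Over all tested probes, 2.64% were called lower and 0.248% higher. The summed Sertoli marker level, in multiples of the 75th percentile signal, was 37.2 to 40.3 in KO testes and 44.3 to 48.5 in WT testes. This sum includes Clu, whose spots were saturated on all 3 KO and all 3 WT arrays. Clu entered it at 1154%, 1395% and 1505% in KO testes and 1045%, 1240.5% and 1123% in WT testes. The part of Sertoli cells in the Stra6 difference was not tested.

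Storage showed 1 WT array apart from the rest. Lrat, the acyltransferase that makes retinyl esters, read 5.51%, 6.05% and 5.25% in KO testes and 4.79%, 9.05% and 4.87% in WT testes. WT replicate 2 was high, and the other WT arrays lay below the KO arrays. The log2 difference was -0.09 (SE 0.25, 95% interval -0.70 to 0.52, adjusted p = 0.844 in limma). Without WT replicate 2 the difference was 0.21, so its sign rests on that array. It was 0.26 within slide 1 and -0.79 in the slide 2 pair, which holds that array.

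The first oxidation was covered by Rdh10, which turns retinol into retinal. It read 7.13%, 8.18% and 8.20% in KO testes and 8.81%, 9.84% and 9.34% in WT testes, with no overlap. The means were 7.84% ± 0.61 in KO and 9.33% ± 0.52 in WT testes (SD, n = 3 each), and the log2 difference was -0.25 (SE 0.09, 95% interval -0.47 to -0.04, adjusted p = 0.177 in limma). Slide 1 alone gave -0.25 and the slide 2 pair gave -0.26. Normexp background correction turned the value to 0.15, and moved the median over all probes to 0.22.

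The 3 enzymes that make retinoic acid from retinal gave 3 different pictures. Aldh1a1, an enzyme of the somatic cells of the mouse testis, was at the scanner's limit on 2 of 3 KO arrays and all 3 WT arrays. Its processed signal was 60179, 57002 and 62818 units in KO testes and 60408, 60925 and 61583 in WT testes, so its WT level is only bounded from below and no difference between the groups is given. The probe was not called (adjusted p = 0.231 in limma), but this carries no weight, since a capped signal hides a rise and can hide a fall.

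Aldh1a2, an enzyme of spermatocytes and later germ cells in the mouse, read 559%, 494% and 531% in KO testes and 555%, 489% and 487% in WT testes. The groups overlapped, and the log2 difference was 0.05 (SE 0.09, 95% interval -0.17 to 0.27, adjusted p = 0.751 in limma). In the same arrays, where 2.88% of tested probes were called in limma, 0 of 9 spermatocyte markers were. Of these, Hspa2, Pgk2 and Ldhc were saturated on 2 or 3 arrays of each group and are left out of what follows. The other 6 had a median of 0.17 and a summed level of 13.9 to 15.4 in KO testes against 12.3 to 13.5 in WT testes. By unadjusted limma p-values under 0.05, 3 of these 6 were higher and 0 lower, against 12.3% (higher) and 10.9% (lower) of all tested probes. Their part in the Aldh1a2 values was not tested.

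Aldh1a3 read 15.9%, 10.95% and 10.97% in KO testes and 14.4%, 15.4% and 15.6% in WT testes. KO replicates 2 and 3 lay below all WT arrays, while KO replicate 1 lay above them. The log2 difference was -0.28 (SE 0.16, 95% interval -0.67 to 0.10, adjusted p = 0.313 in limma). Without KO replicate 1, the array that stood apart, it was -0.46 (adjusted p = 0.0683).

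Among the breakdown enzymes, Cyp26a1 had KO arrays apart from WT arrays and Cyp26b1 did not. Cyp26a1, the hydroxylase whose window held the repeat shown above, read 5.82%, 5.69% and 7.51% in KO testes and 4.82%, 5.01% and 4.49% in WT testes. All KO arrays lay above all WT arrays, and KO replicate 3 was higher than the other KO arrays. The means were 6.34% ± 1.02 in KO and 4.77% ± 0.26 in WT testes (SD, n = 3 each), with a log2 difference of 0.40 (SE 0.13, 95% interval 0.09 to 0.70, adjusted p = 0.147 in limma). It was 0.31 within slide 1 and 0.58 in the slide 2 pair, and 0.27 without KO replicate 3.

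Cyp26b1, whose window held no half-site, read 261%, 255% and 281% in KO testes and 266%, 315% and 232% in WT testes. The 3 KO values lay inside the WT range, and the log2 difference was -0.02 (SE 0.12, 95% interval -0.32 to 0.28, adjusted p = 0.934 in limma). Its sign turned with the array left out: it was 0.01 without KO replicate 2 and 0.09 without WT replicate 2. The difference between the responses of the 2 enzymes was not tested, nor was a link between the sequence matches and the levels.

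Rara, the retinoic acid receptor of Sertoli cells and germ cells, was read by 2 probes with nearly the same difference. Probe A_55_P2095345 read 202%, 199% and 207% in KO testes and 222%, 222% and 212% in WT testes, without overlap. Its log2 difference was -0.11 (SE 0.07, 95% interval -0.27 to 0.05, adjusted p = 0.335 in limma). Probe A_55_P2095342 read 34.3%, 31.9% and 32.5% in KO testes and 34.04%, 37.3% and 34.8% in WT testes, with 1 KO array inside the WT range. Its log2 difference was -0.11 (SE 0.07, 95% interval -0.28 to 0.07, adjusted p = 0.408 in limma).

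**Figure D2:**
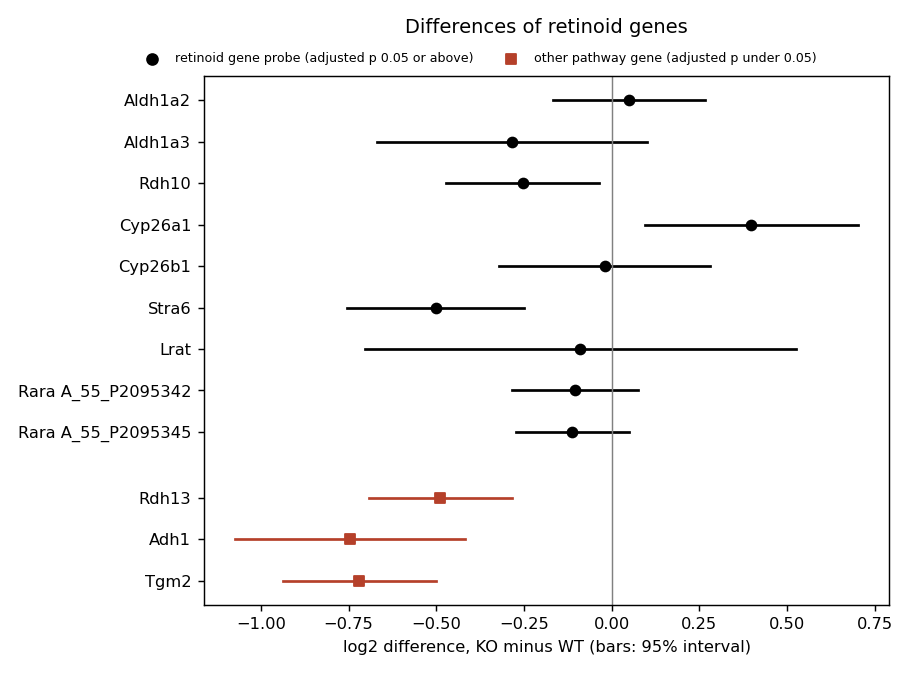
Log2 difference (horizontal axis, KO minus WT) with its 95% interval for 9 probes of the retinoid genes (black circles; the saturated Aldh1a1 is left out) and for the 3 other pathway genes that passed the test (red squares). Of the 9 black intervals, those of Rdh10, Cyp26a1 and Stra6 leave out 0; the red points run from -0.75 to -0.49.

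Other genes of the pathway were taken from a list of 51, of which 45 had a tested probe; Ttr, Rdh7, Rdh16, Dhrs9, Sdr16c5 and Cyp26c1 had none. Of the 45 genes 3 fell and 0 rose, where 2.64% of all tested probes were called lower and 0.248% higher. Lower probes made up 91.4% of all calls with the scaling used, against 80.0% with quantile normalization and 79.9% with median scaling. By unadjusted limma p-values under 0.05, 8 of the 45 were lower and 1 was higher, against 10.9% (lower) and 12.3% (higher) of all tested probes. The median over the 45 was -0.08, beside 0.06 over all tested probes. The count of 3 was 0 or 1 with any single array left out, 0 with slide as a fixed block or within slide 1, and 0 under normexp or with the replicate number as a block.

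None of the 8 genes of binding and transport was called in limma, and none had an unadjusted p under 0.05. Rlbp1, which encodes a retinal-binding protein known from the retina, had the smallest p-value among them. It read 3.42%, 3.36% and 3.49% in KO testes and 2.63%, 3.32% and 3.00% in WT testes, a log2 difference of 0.21 (SE 0.10, 95% interval -0.04 to 0.45, adjusted p = 0.262 in limma). The groups did not overlap, although WT replicate 2 lay close to the KO arrays. Crabp1, a cellular retinoic acid-binding protein named here after its value was seen, was at -0.11 (adjusted p = 0.461).

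Among 16 dehydrogenases and related enzymes, 2 fell. Adh1, a cytosolic alcohol dehydrogenase that can oxidise retinol, read 48.5%, 46.2% and 41.7% in KO testes and 71.7%, 91.5% and 67.1% in WT testes. It was 1.68-fold lower (log2 difference -0.75, SE 0.14, adjusted p = 0.0484 in limma). Rdh13, a retinol dehydrogenase of mitochondria, read 4.12%, 3.80% and 3.74% in KO testes and 5.65%, 5.04% and 5.67% in WT testes. It was lower by -0.49 on the log2 scale (SE 0.08, adjusted p = 0.0418 in limma), and its value was 0.21 under normexp, next to that setting's median of 0.22. With any single array left out neither was called, at adjusted p-values of 0.0657 to 0.158, while the differences were -0.84 to -0.61 for Adh1 and -0.54 to -0.46 for Rdh13. The Leydig list is given because these androgen-producing cells also hold such dehydrogenases. In it 1 of 8 genes fell (Hsd3b1, -0.76, adjusted p = 0.0369 in limma), where 2.64% of tested probes were called lower. The list was mixed: its median was -0.20, with KO below WT for 2 genes (Hsd3b1 and Hsd17b3) and KO above WT for 2 (Star at 0.63, adjusted p = 0.197, and Hsd3b6 at 0.40, adjusted p = 0.227). Over all tested probes, KO lay below WT for 13.1% and above WT for 18.6%. The summed Leydig level was 18.6, 29.0 and 28.5 multiples of the 75th percentile in KO testes and 24.3, 35.6 and 30.7 in WT testes. Cyp17a1 was low on KO replicate 1, at 295% there and 1299.7% and 1300.5% on the other KO arrays; the part of these cells was not tested.

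Of 6 genes named for their response to retinoic acid, 1 fell. Tgm2, a transglutaminase induced by retinoic acid in many cells, read 117%, 122% and 119% in KO testes and 176%, 210% and 205% in WT testes. It was 1.65-fold lower (log2 difference -0.72, SE 0.09, adjusted p = 0.0182 in limma), and its second probe gave -0.73 (adjusted p = 0.0304). With 1 array left out the difference was -0.80 to -0.67, and the adjusted p was 0.0252 without WT replicate 1 and 0.052 to 0.0917 without any other array. Stra8, named here after its values were seen and which germ cells switch on with retinoic acid as they enter meiosis, read 179%, 196% and 225% in KO testes and 225%, 219% and 236% in WT testes. These ranges overlapped, with a log2 difference of -0.19 (SE 0.10, adjusted p = 0.303 in limma). Over the 6 responsive genes the median was -0.20. KO lay below WT for 3, as for 13.1% of tested probes, and above WT for 0, against 18.6%. For Kit, among these 3, the groups all but touched, with KO replicate 2 at 55.432% and WT replicate 1 at 55.433%. Of 8 macrophage markers in the same arrays, 2 were called lower (Cd74 and C1qc) and 0 higher, against 2.64% and 0.248% of tested probes. The other 6 were not called, with differences as small as -0.02 for Lyz2. Over the 8 markers the median was -0.38, and the summed level was 3.37 to 3.78 in KO testes against 5.02 to 5.61 in WT testes. The part of macrophages in the Tgm2 difference was not tested.

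The other receptors were not called in limma, and Rarb had the smallest p-value among them. Rarb, a receptor whose own promoter is a classical retinoic acid target, read 8.69%, 8.58% and 10.1% in KO testes and 6.78%, 6.32% and 7.36% in WT testes. All KO arrays lay above all WT arrays, with a log2 difference of 0.42 (SE 0.10, 95% interval 0.18 to 0.66, adjusted p = 0.0883). Among 5 genes of retinyl esters and carotenoids, Lpl, the lipoprotein lipase, had the smallest p-value, with -0.59 (adjusted p = 0.257). Among 5 co-regulators the smallest p-value was that of the coactivator Ncoa2, which read 115%, 105% and 101.5% in KO testes and 117%, 134% and 123% in WT testes (log2 difference -0.21, adjusted p = 0.217 in limma).

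**Figure D3:**
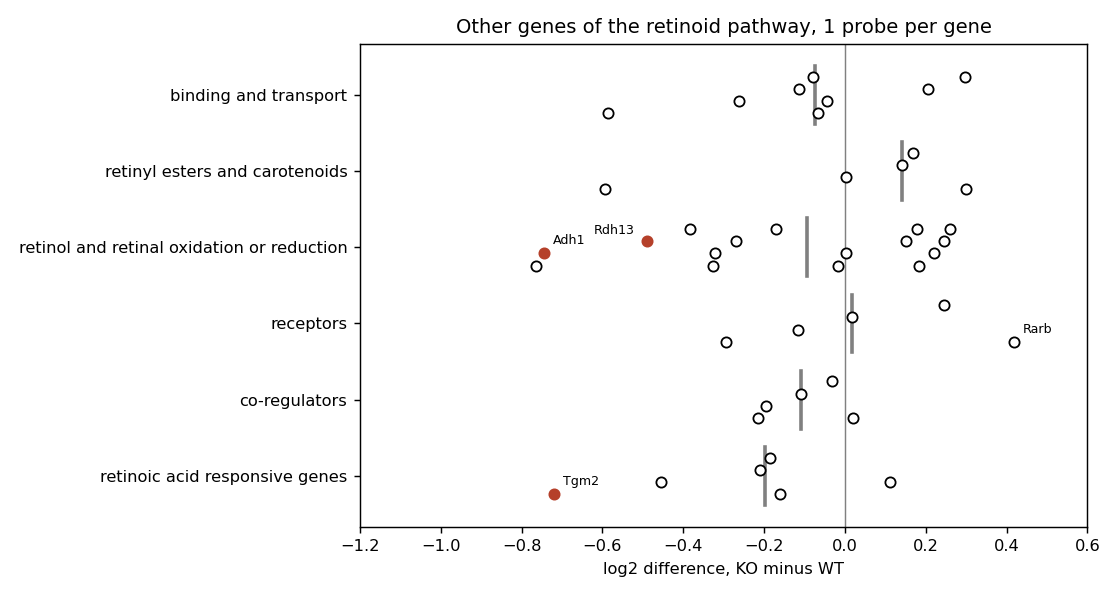
Log2 difference (horizontal axis, KO minus WT) of the 45 other retinoid pathway genes, 1 probe each, by role. Red filled points passed the test, open points did not, and grey ticks are group medians, which run from -0.20 for responsive genes to 0.14 for retinyl esters and carotenoids.

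**Figure D4:**
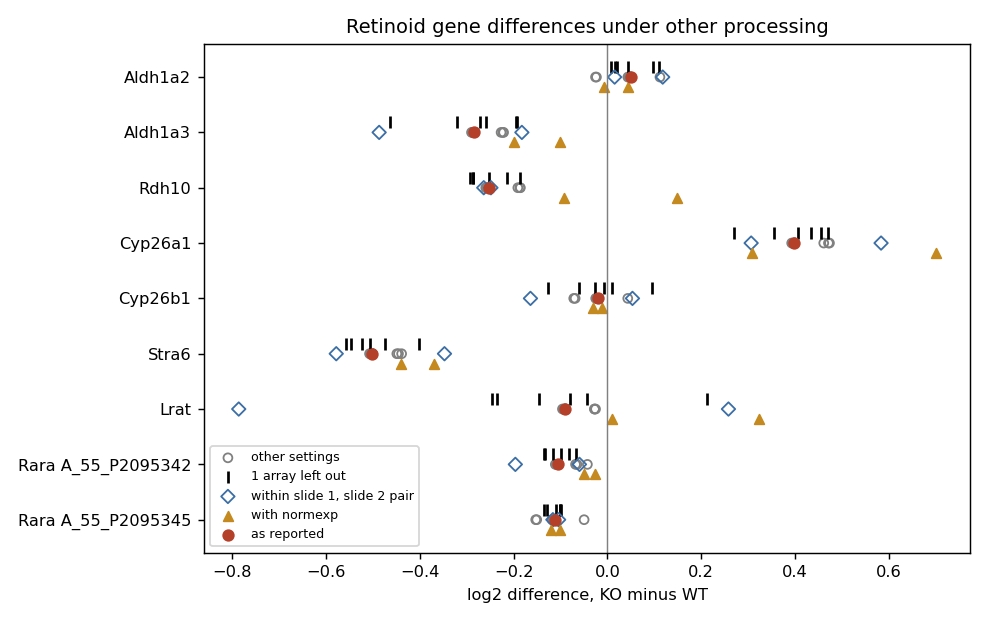
Log2 difference (horizontal axis, KO minus WT) of 9 probes of the retinoid genes, without the saturated Aldh1a1, as reported (red) and under other processing, array sets and slides. Stra6 stays at -0.58 to -0.35 and Cyp26a1 at 0.27 to 0.70 in every setting drawn, while Lrat, Cyp26b1, Aldh1a2 and Rdh10 have points on both sides of 0.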

How the data were processed

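Per the labels' protocols, TRIzol-extracted RNA was Cy3-labelled with a low-input kit. The authors scanned a design for mm9 and extracted linear spot intensity with Feature Extraction 10.7.3.1, per the file headers. The authors also deposited a value table of normalized intensity on a linear scale; how it was normalized is not stated, and the submitters' processing notes name limma.

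The members and gene lists were chosen with earlier results of these data known. Control spots were left out, and 163 to 280 spots per array marked as outliers were set to missing. Log2 processed signals were averaged by probe and scaled to the 75th percentile of their array. Testing required a signal well above background on at least 3 of 6 arrays and at least 2 values per group, leaving 31801 of 39429 probes. Accessions were matched to RefSeq (GRCm38.p6): 26055 probes had 1 symbol, 0 had several and 13374 stayed unnamed. Limma 3.58.1 in R 4.3.3 compared KO with WT, two-sided, with group as the only term and Benjamini-Hochberg adjustment over all tested probes; it was tested on simulated data. Intervals are 95% limma intervals. Levels of different probes were not compared. Some genes of the pathway list are not reported here and were taken out of its counts, which changes them. For list genes the brightest complete probe was used. Named genes were the members, called list genes, the smallest p in lists without a call, and Trp73; the rule's search for genes of like profile ran only for called members, and there was none. The number of arrays limits precision. The p-values rest on the spread within groups, in which differences between mice, arrays and slides are mixed. Alternatives were normexp (on median signals, since the files hold no mean signal), quantile and median scaling, filters, slide and replicate blocks, leaving out arrays, and the value table.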

Additional observations from a re-analysis of the deposited data

How the results depend on the processing

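None of the 10 member probes was called in limma under any alternative except Stra6 with the filter on all 6 arrays (1 lower). By unadjusted p-values under 0.05, 2 were lower and 1 higher as reported. The count of 3 lower pathway genes became 1 with median scaling, 1 with no filter, 1 with slide as a random block, and 1 under normexp with quantile normalization, a setting chosen after seeing the data. It became 0 under normexp alone (4 lower and 1 higher by unadjusted p-values under 0.05), 0 with slide as a fixed block (9 and 1), 0 within slide 1 (5 and 0) and 0 with the replicate block (7 and 2), and 0 to 1 with 1 array left out. The cause was not tested, beyond the fewer arrays in the last and in slide 1. Over all tested probes, 838 lower and 79 higher became 0 and 0 under normexp (810 and 1075 unadjusted), 868 and 217 under quantile normalization, 569 and 143 with median scaling, 1109 and 165 on probes above background on all arrays, 349 and 13 with no filter, 299 and 15 with slide as a fixed block, 672 and 39 as a random block, 0 and 0 within slide 1 (1809 and 1332 unadjusted), 405 and 91 under normexp with quantile normalization, 877 and 217 in the value table matched by array, and 116 to 420 and 7 to 28 with 1 array left out. The share of lower calls, 91.4% as reported, was 80.0% and 79.9% under quantile and median scaling. The replicate numbers did not pair the arrays: same-numbered arrays correlated at -0.03, -0.08 and -0.09 in their deviations from group means, and with the replicate block 9 probes were lower and 1 higher.

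The median over member probes was 0.0165 under normexp, beside 0.22 over all tested probes. Signs turned for Aldh1a2 under quantile normalization (-0.0234), in the matched value table (-0.0254) and under normexp with quantile normalization (-0.0083). They turned for Rdh10 under normexp (0.15), for Rdh13 under normexp (0.21), for Cyp26b1 with median scaling (0.0434), within slide 1 (0.0534) and with 1 array left out (-0.1257 to 0.0949, above 0 without KO replicate 2 or WT replicate 2), and for Lrat under normexp (0.32), normexp with quantile normalization (0.0093), within slide 1 (0.26) and with 1 array left out (-0.2463 to 0.21, above 0 without WT replicate 2). Under the value table's own labels, added after seeing the data, every sign turns relative to the matched table. All probes then gave 217 lower and 877 higher, pathway genes 0 and 2, and the member median was 0.0699. Values were -0.0031 for the saturated Aldh1a1, 0.23 for Aldh1a3, 0.19 for Rdh10, -0.47 for Cyp26a1, 0.0718 for Cyp26b1, 0.45 for Stra6, 0.0275 for Lrat, 0.068 and 0.15 for Rara, 0.42 for Rdh13, 0.72 for Adh1, 0.74 for Tgm2 and 3.18, 6.01 and 0.94 for Trp73. Saturation limits Aldh1a1, and no other member probe was saturated. Of the pathway genes, Rdh11 was saturated on 2 KO and 2 WT arrays and Rec8 on 1 KO array, and both stay in the list's counts and medians.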

Other observations

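Some retinoid genes were high on a single WT array; they are named after their values were seen, and no cause was tested. The retinoic acid-binding protein gene Crabp2 read 42.3%, 44.5% and 44.9% of the array's 75th percentile in KO testes and 45.3%, 50.8% and 124% in WT testes, with WT replicate 3 far above the rest and a log2 difference of -0.59 (adjusted p = 0.365 in limma). On that array the nuclear receptor gene Rxrg was also high, at 524%, 581% and 580% in KO testes and 576%, 664% and 853% in WT testes. Rbp3, known as a retinoid carrier of the retina, read 467%, 531% and 602% in KO testes and 481%, 609% and 874% in WT testes. Rbp7 was instead high on WT replicate 1, with 9.42%, 8.31% and 8.68% in KO testes and 14.7%, 7.20% and 7.07% in WT testes.

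Of the 45 pathway genes, KO lay below WT for 10 and above it for 5, where 13.1% and 18.6% of tested probes did so. Rlbp1 and Rarb, described above, are among the 5. Dhrs3 and Rarres2 lay below and missed the threshold, and they are named after their values were seen. The retinal reductase gene Dhrs3, which retinoic acid induces, read 115%, 115% and 112% in KO testes and 136%, 158% and 153% in WT testes (log2 difference -0.38, adjusted p = 0.0706 in limma). Rarres2, named for its response to retinoic acid receptors, read 49.8%, 49.98% and 49.1% in KO testes and 58.2%, 70.7% and 76.4% in WT testes (-0.45, adjusted p = 0.0955).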
